A study of Homo sapiens with 16 samples.

Results

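The 31 genes described here make or handle the nucleotides from which RNA and DNA are built, and they were chosen by name as genes of purine and pyrimidine nucleotide synthesis. All 31 were found among the 60603 genes of the deposited count table, each on 1 row. They comprise 9 genes of de novo purine synthesis, 2 of phosphoribosyl pyrophosphate (PRPP) synthesis, 5 of de novo pyrimidine synthesis, 7 of deoxynucleotide and thymidylate supply, 4 nucleotide kinases, 2 of purine base salvage, 1 dNTP hydrolase and 1 nucleoside transporter. RNA was measured by sequencing of total RNA in 2 established human lines of acute myeloid leukaemia. SKNO-1 has the fusion gene RUNX1-RUNX1T1, and U-937 is monocyte-like. Each line received the solvent DMSO, all-trans retinoic acid (ATRA), Corin or ATRA together with Corin, at 0.1 µM for each agent and for 24 h, with 2 libraries in each of the 8 groups and 16 in all. ATRA activates retinoic acid receptors, and Corin is a dual inhibitor of the demethylase LSD1 and the histone deacetylases of the CoREST complex. SKNO-1 alone was grown with GM-CSF, at 10 ng/mL, so that line and medium cannot be told apart in any comparison of the lines. No label says whether the 2 libraries of a group came from separate cultures, so the p-values measure the spread between these libraries, which may be technical.

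De novo purine synthesis assembles a purine ring on PRPP in a chain of steps that ends at inosine monophosphate, from which the AMP and GMP branches part. De novo pyrimidine synthesis builds the ring first and then joins it to PRPP, and CTP synthase makes the cytidine nucleotide from UTP. Ribonucleotide reductase turns ribonucleoside diphosphates into deoxynucleotides, thymidylate synthase makes dTMP, and salvage enzymes recover bases and nucleosides. Dividing leukaemia cells depend on these routes, and several of the enzymes are targets of antileukaemic drugs, while SAMHD1 hydrolyses dNTPs and the active form of cytarabine.

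Sequences around the start sites of PAICS, TYMS and PPAT are shown, and a stretch upstream of RRM2 is added. PAICS and TYMS are included because they had the largest falls in any comparison with DMSO. PPAT is included because it neighbours PAICS and encodes the first committed enzyme of the same chain. PPAT and PAICS lie head to head on chromosome 4, at chr4:56393362-56435615 on the minus strand and chr4:56435741-56464578 on the plus strand (GENCODE release 44 on GRCh38), and the 125 bases between their starts serve as the upstream sequence of both. These bases are printed first, from RefSeq's GRCh38.p14 promoter table on the plus strand, and they hold none of the motifs searched. The letters CACGTG (an E-box, the kind of site bound by MYC with MAX) occur once near these starts, inside PAICS at base 41 counted from its RefSeq start, which is 182 bases before the start of PPAT on the other strand. That site follows with its flanks and with the E-box in capitals. The next line is the 150 bases before the annotated start of TYMS, which hold none of the motifs. The last 3 lines are a repeated stretch upstream of RRM2, at 123, 93 and 66 bases before a RefSeq start at base 10122739 of chromosome 2, with the CCAAT letters in capitals. They were chosen after the match was seen, and a RefSeq start at base 10122568 lies before all 3.
PPAT to PAICS, chr4:56435616-56435740: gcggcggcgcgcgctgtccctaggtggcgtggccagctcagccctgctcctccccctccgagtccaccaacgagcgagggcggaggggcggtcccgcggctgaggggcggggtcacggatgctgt
PAICS E-box site, chr4:56435780-56435801: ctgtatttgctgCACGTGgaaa
TYMS, chr18:657503-657652: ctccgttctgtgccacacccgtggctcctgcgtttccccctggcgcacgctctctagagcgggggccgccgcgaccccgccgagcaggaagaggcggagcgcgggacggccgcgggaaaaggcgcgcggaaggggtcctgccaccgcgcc
RRM2 CCAAT site 1, chr2:10122608-10122632: aggcgcagCCAATgggaagggtcgg
RRM2 CCAAT site 2, chr2:10122638-10122662: tggcacagCCAATgggaagggccgg
RRM2 CCAAT site 3, chr2:10122665-10122689: caccaaagCCAATgggaagggccgg

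RefSeq start windows of 250 bases before and 50 after the start were found for 29 of the 31 members, as 45 windows, and were searched on both strands. IMPDH2 and ADSL had no entry. The E-box was in a window of 7 of the 29 members (24.1%), against 8.77% of all 27305 genes of the table. Those members are ATIC, DCK, DHODH, NME1, PAICS, PPAT and SLC29A1, and PPAT and PAICS share the same letters. TTTCGCGC or TTTGGCGC, letters of E2F sites, were found in 3 members (10.3%), DCK, DUT and GART, against 1.4% of genes. CCAAT was found in 10 members (34.5%), against 39.7% of genes. Counted by window, the shares were 15.6% against 7.26% for the E-box, 6.67% against 1.15% for E2F letters and 28.9% against 34.6% for CCAAT. The retinoid receptor direct repeat, a pair of AGGTCA with any 5 bases between, was in 0 of the 29 members and in 0.00732% of genes. E-box, E2F and CCAAT letters do not overlap as spelled here, and a match is a description of letters only.

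Estimated counts of a library summed to between 28414479 and 37817314 over all genes, and the lowest estimated count of any member in any library was 63. The labelled blood origin was checked on marker genes. The leukocyte gene PTPRC and the myeloid genes SPI1 and CD33 were detected in all 16 libraries, RUNX1T1 stood at 95.4 to 156 CPM in SKNO-1 and at 0 to 0.033 in U-937, and HOXA9 and HOXA10 were at 0 in SKNO-1. MPO, a marker of granulocyte precursors, was under 0.46 CPM in every U-937 library. Among markers of other cell types, the fibroblast gene COL1A1 reached 0.817 CPM in U-937, and the T cell genes CD3E and CD3D, the erythroid genes HBB and HBA1 and the epithelial genes EPCAM and KRT18 stayed under 0.13 CPM in every library. The 2 SKNO-1 DMSO libraries stood apart from each other: the SD of their log2 difference over genes was 0.361, against 0.108 to 0.208 in the other 7 groups, and the difference followed GC content (Pearson r = 0.785 over 9338 genes, which are not independent replicates). The medians and the larger changes in SKNO-1 are therefore also given without the first and without the second of these libraries, in that order. In the other groups the correlation with GC content ran from -0.42 in SKNO-1 with ATRA to 0.568 in U-937 with DMSO. It was 0.40 in U-937 with both agents.

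In U-937, ATRA alone lowered most genes that make purine and pyrimidine nucleotides de novo, left the deoxynucleotide genes near or above their DMSO level, and raised SAMHD1. ATRA with Corin lowered nearly all of the set, deoxynucleotide genes included. At an adjusted p under 0.05 (edgeR quasi-likelihood F-test, p adjusted over all genes by Benjamini and Hochberg), ATRA changed 25 of 31 members in U-937, 5 higher and 20 lower, where 41.8% of all genes tested were called, 21.7% higher and 20.1% lower. The median member had a log2 fold change of -0.56, against 0.02 over all genes. Corin changed 5 members, 1 higher and 4 lower, where 12.9% of genes were called, 8.55% higher and 4.4% lower. These 5 are 16.1% of the members, near the share of all genes, and the count was 1 without either U-937 DMSO library. The combination changed 30 members, 2 higher and 28 lower, against 65.3% of genes called (33.1% higher, 32.2% lower), and the median member stood at -2.08 (all genes 0.03). Against ATRA alone the combination had 2 members higher and 28 lower (47.4% of genes called, 22.5% higher and 24.9% lower). Against Corin alone 2 were higher and 27 lower (60.5% of genes called, 29.9% higher and 30.6% lower). These comparisons share the same DMSO or single-agent libraries. CPM are counts scaled to a common library total. In bulk RNA, fewer cells of a kind and less RNA per cell cannot be told apart, and CPM is relative to the other RNA of the library.

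In SKNO-1, many members fell with Corin and with the combination, by less than under the combination in U-937, and SAMHD1 was higher with each treatment. ATRA changed 2 members, both higher, where 6.75% of genes were called, 2.96% higher and 3.79% lower. Corin changed 16, 1 higher and 15 lower, where 37.9% of genes were called, 20.5% higher and 17.3% lower, with a median of -0.28 (all genes 0.00). The combination changed 24, 3 higher and 21 lower, where 46.7% of genes were called, 24.7% higher and 22% lower, with a median of -0.30 (all genes 0.06). With the GC trend removed these medians were -0.15 (all genes 0.14) and -0.20 (all genes 0.16). Against ATRA alone the combination had 1 member higher and 22 lower (44.8% of genes called, 23% higher and 21.8% lower), and without the second ATRA library 15 were called. Against Corin alone 2 members were higher and 0 lower (10.4% of genes called, 4.82% higher and 5.6% lower), a count that changed when any 1 library was left out. In that comparison 12 of the 31 members had an unadjusted p under 0.05 (edgeR quasi-likelihood F-test). The median there was -0.074, and -0.066 without either DMSO library. Without the first DMSO library the median member stood at -0.017 with ATRA, -0.284 with Corin and -0.377 with both. Without the second these medians were -0.005, -0.315 and -0.281. The shares of all genes called are those of the fit of all 8 libraries. The ATRA count was 1 when any 1 of the other 6 libraries was left out, the Corin count was 7 without the second Corin library, and the combination count was 13 and 12 without the first and second library of that group. With Corin in SKNO-1 the largest falls were called without either DMSO library, at -0.91 and -1.16 for CAD, -0.59 and -1.10 for DTYMK and -0.68 and -0.62 for CTPS1 (log2, without the first and without the second). With both agents the values were -0.64 and -0.89 for CAD, -0.75 and -0.68 for CTPS1 and -0.80 and -0.53 for TYMS. Those of SAMHD1 were 0.52 and 0.51 with ATRA, 0.70 and 0.69 with Corin and 1.02 and 1.01 with both.

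**Figure D1:**
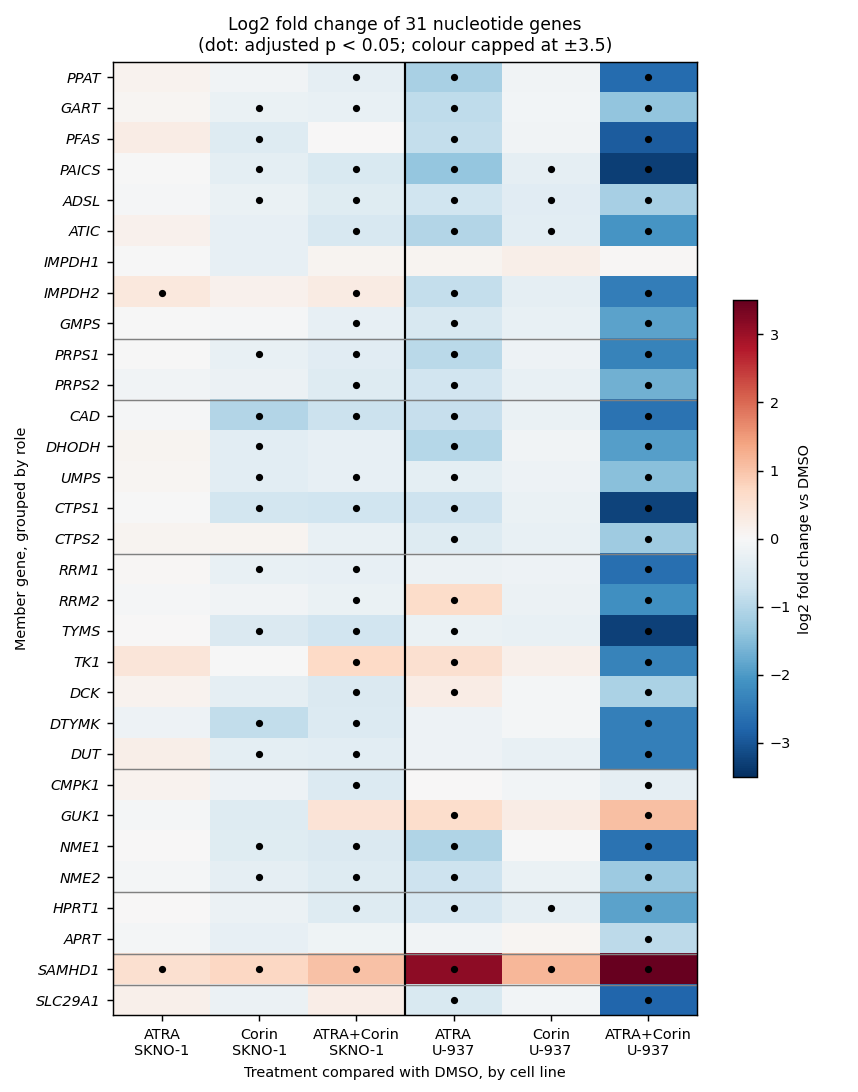
Log2 fold change against DMSO (colour) of the 31 members (rows, grouped by role) under 3 treatments in SKNO-1 (left 3 columns) and U-937 (right 3 columns), with a dot where the adjusted p was under 0.05. The U-937 combination column has 28 members lower, where 32.2% of all genes were, and SAMHD1 is higher in all 6 columns.

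With DMSO, the levels of different members were compared in TPM (length-scaled transcript abundance). NME2, a nucleoside diphosphate kinase, was the highest member in both lines, at 522 ± 93.3 TPM in SKNO-1 and 299.9 ± 20.5 in U-937 (SD, n = 2). PAICS, at 159 ± 46.3 TPM, and GMPS, at 154 ± 48.2, followed NME2 and NME1 in SKNO-1 and did not differ beyond their spread. In U-937 the order after NME2 was IMPDH2 at 269.7 ± 6.80, DUT at 253 ± 13.3 and NME1 at 172 ± 6.15 TPM. The lowest members were CTPS2 in SKNO-1 at 4.19 ± 1.82 TPM and SAMHD1 in U-937 at 3.90 ± 0.488. Between the lines, 23 members differed with DMSO, 8 higher and 15 lower in U-937, where 64.8% of genes were called, 31.7% higher and 33.1% lower. The largest differences were those of SAMHD1 (log2 -1.86 ± 0.12), TK1 (-1.70 ± 0.19) and GMPS (-1.49 ± 0.093), all lower in U-937, and of ATIC, higher in U-937 by 1.31 ± 0.13. Without the first and without the second SKNO-1 DMSO library these differences were -1.81 and -1.83 for SAMHD1, -1.26 and -1.99 for TK1, -1.54 and -1.36 for GMPS and 1.17 and 1.57 for ATIC.

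The de novo purine chain opens with PPAT, the amidotransferase that commits PRPP to purines. PPAT stood in SKNO-1 at 102 and 120.3 CPM with DMSO, 119 and 116 with ATRA, 105 and 97.2 with Corin, and 86.3 and 87.6 with both agents. For PPAT, the U-937 values in the same order of groups were 66.6 and 80.3, 33.3 and 33.5, 68.1 and 65.4, and 11.1 and 11.3 CPM. In U-937 the ATRA libraries and the combination libraries both lay below all DMSO libraries, with log2 fold changes of -1.14 ± 0.11 (adjusted p = 5.84e-09) and -2.71 ± 0.12 (adjusted p = 8.98e-16), and the Corin libraries overlapped with DMSO (-0.13 ± 0.10, adjusted p = 0.452). PAICS, which catalyses 2 later steps of the chain, was at 472 and 522 CPM with DMSO, 474 and 479 with ATRA, 394 and 385 with Corin, and 331 and 331 with both agents in SKNO-1. For PAICS, the U-937 values were 358 and 379, 143 and 147, 312 and 277, and 35.1 and 39.5 CPM. It had the largest fall of any member in U-937 under ATRA (-1.35 ± 0.10, adjusted p = 1.77e-10) and under the combination (-3.30 ± 0.11, adjusted p = 1.4e-17), 9.85-fold in the latter. Its smaller fall under Corin in U-937 (-0.32 ± 0.10, adjusted p = 0.0354) was called in 10 of 16 alternatives, with adjusted p from 0.00777 to 0.245, and was lost without the second Corin library, without either ATRA library and without either DMSO library. In SKNO-1 PAICS fell with Corin (-0.35 ± 0.054) and with both agents (-0.53 ± 0.054), and the groups did not overlap. Without the first and the second DMSO library its values were -0.42 and -0.31 with Corin and -0.60 and -0.49 with both.

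GART, a trifunctional enzyme of the middle of the chain, was at 329 and 344 CPM with DMSO, 342 and 341 with ATRA, 294 and 273 with Corin, and 272 and 271 with both agents in SKNO-1. For GART, the U-937 values were 326 and 358, 191 and 182, 336 and 303, and 122 and 139.9 CPM. Its fall in U-937 was -0.88 ± 0.10 with ATRA and -1.38 ± 0.11 with both agents, a smaller drop than that of PAICS. GART overlaps SON on the opposite strand, and use of strand in counting is not stated. PFAS, which acts after the first GART steps, stood in SKNO-1 at 45.2 and 33.7 CPM with DMSO, 44.5 and 47 with ATRA, 28.3 and 28.9 with Corin, and 37.7 and 39.9 with both agents, and its DMSO libraries differed more than those of any other group. For PFAS, the U-937 values were 65.9 and 60.3, 35.4 and 34.9, 62.4 and 53.3, and 8.04 and 8.76 CPM. Under the combination in U-937 it fell 7.49-fold (-2.90 ± 0.12, adjusted p = 4.21e-16), and with ATRA alone its change was -0.85 ± 0.11. PFAS overlaps CTC1 on the opposite strand.

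ADSL, a lyase that works in this chain and in the AMP branch, was at 173 and 162 CPM with DMSO, 159 and 158 with ATRA, 145 and 139 with Corin, and 119 and 121 with both agents in SKNO-1. For ADSL, the U-937 values were 113 and 114, 70.7 and 69.3, 96.6 and 76.7, and 48.2 and 53.2 CPM. ADSL fell with ATRA (-0.70 ± 0.11), Corin (-0.39 ± 0.11) and both agents (-1.16 ± 0.11) in U-937, and the Corin call was lost without the second Corin library and without either DMSO library. ATIC, the enzyme of the last 2 steps to inosine monophosphate, stood in SKNO-1 at 24.6 and 33.7 CPM with DMSO, 34.1 and 28.4 with ATRA, 23.5 and 23.9 with Corin, and 20.0 and 18.3 with both agents. For ATIC, the U-937 values were 71.2 and 73.8, 37.7 and 33.5, 53.7 and 57.7, and 17.1 and 17.2 CPM. Its falls in U-937 were -1.03 ± 0.10 with ATRA, -0.38 ± 0.10 with Corin and -2.07 ± 0.11 with both, and the Corin call was lost without the first Corin library and without either DMSO library.

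In the GMP branch, IMPDH1 and IMPDH2 encode 2 isoforms of the rate-limiting dehydrogenase, and in U-937 IMPDH2 fell while IMPDH1 was not called. IMPDH2 was at 258 and 223 CPM with DMSO, 301 and 303 with ATRA, 277 and 261 with Corin, and 284 and 279 with both agents in SKNO-1. For IMPDH2, the U-937 values were 379 and 381, 209 and 217, 334 and 277, and 63.3 and 76.9 CPM. It fell in U-937 with ATRA (-0.84 ± 0.11, adjusted p = 1.53e-06) and with both agents (-2.43 ± 0.12, adjusted p = 7.77e-15), and in SKNO-1 it was higher with ATRA (0.37 ± 0.083, adjusted p = 0.0382) and with both (0.28 ± 0.083, adjusted p = 0.0266). Each SKNO-1 rise was called in 9 of 16 alternatives, with adjusted p up to 0.266 and 0.132, and each was lost when any 1 SKNO-1 library other than a DMSO one was left out. Without the first and the second DMSO library the values were 0.45 and 0.21 with ATRA and 0.39 and 0.15 with both. IMPDH1 stood in SKNO-1 at 72.7 and 48.9 CPM with DMSO, 55.2 and 63.2 with ATRA, 50.6 and 49.7 with Corin, and 62.1 and 64.1 with both agents, and its DMSO libraries were its highest and lowest. For IMPDH1, the U-937 values were 55.4 and 52.4, 55.4 and 60.7, 65.4 and 58.4, and 58.9 and 51.2 CPM. It is the 1 member not called in the U-937 combination (0.04 ± 0.10, adjusted p = 0.765). Within libraries, the ratio of IMPDH2 to IMPDH1 in TPM was 7.50 and 8.05 with DMSO and 1.15 and 1.72 with both agents in U-937, and 4.24 and 4.83 against 5.04 and 4.89 in SKNO-1. GMPS, which makes GMP, was at 467 and 547 CPM with DMSO, 498 and 482 with ATRA, 498 and 486 with Corin, and 403 and 407 with both agents in SKNO-1, with U-937 values of 171 and 189, 124 and 121, 156 and 143, and 47 and 51.8 CPM. GMPS fell in U-937 with ATRA (-0.56 ± 0.098) and with both (-1.86 ± 0.10). Of the 9 genes of de novo purine synthesis, the GMP branch included, 8 were lower in U-937 with ATRA and 8 with both agents. Of all genes, 20.1% and 32.2% were lower. Estimated counts of PPAT, PAICS, ADSL, IMPDH1 and GMPS were not whole in at least 50% of libraries, so their levels rest in part on how shared reads were divided.

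PRPS1 and PRPS2 make PRPP, the sugar phosphate that both de novo routes and base salvage use. PRPS1 stood in SKNO-1 at 71.9 and 74 CPM with DMSO, 68.7 and 70.9 with ATRA, 61.5 and 59.1 with Corin, and 53.6 and 53.7 with both agents. For PRPS1, the U-937 values were 130.1 and 142, 70.2 and 72.3, 129 and 111, and 25 and 29 CPM. It fell in U-937 with ATRA (-0.94 ± 0.10, adjusted p = 1.05e-07) and with both agents (-2.33 ± 0.11, adjusted p = 5.77e-15), and in SKNO-1 with Corin (-0.27 ± 0.060, lost without the second Corin library) and with both (-0.39 ± 0.060). Leaving out either DMSO library gave -0.29 and -0.29 with Corin and -0.40 and -0.40 with both. PRPS2 was at 119 and 145 CPM with DMSO, 118 and 119 with ATRA, 117 and 111 with Corin, and 93.9 and 90.5 with both agents in SKNO-1, with U-937 values of 105 and 116, 70.1 and 69.6, 95 and 88.5, and 32.1 and 36.3 CPM. Its U-937 changes were -0.67 ± 0.099 with ATRA and -1.69 ± 0.10 with both, and its treated and DMSO libraries did not overlap under either. The ratio of PRPS1 to PRPS2 in TPM was 1.54 and 1.64 with DMSO and 1.01 and 0.980 with both agents in U-937.

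De novo pyrimidine synthesis starts with CAD, a single protein with the first 3 activities of the route. CAD stood in SKNO-1 at 173 and 149.5 CPM with DMSO, 143 and 161 with ATRA, 77.6 and 80.8 with Corin, and 89.6 and 94.2 with both agents. For CAD, the U-937 values were 186 and 162, 104 and 93.2, 140.1 and 156, and 30.9 and 27.3 CPM. With Corin in SKNO-1 its libraries lay below DMSO (-1.02 ± 0.095, adjusted p = 0.000161), the largest fall of any member in that line, and it was also lower with both agents (-0.76 ± 0.095, adjusted p = 0.00046). In U-937 the fall was -0.82 ± 0.10 with ATRA and -2.57 ± 0.11 with both, and CAD was not called with Corin (-0.23 ± 0.10, adjusted p = 0.161). DHODH, the mitochondrial dehydrogenase of the route, was at 26.2 and 23.1 CPM with DMSO, 25.7 and 25.1 with ATRA, 18.2 and 19.6 with Corin, and 19.2 and 19.9 with both agents in SKNO-1. For DHODH, the U-937 values were 20.0 and 18.8, 9.43 and 9.91, 19.2 and 16.2, and 5.54 and 4.66 CPM. It fell in U-937 with ATRA (-1.0 ± 0.14) and with both agents (-1.92 ± 0.15), and in SKNO-1 with Corin (-0.38 ± 0.10), a call lost without either Corin library and at -0.28 and -0.51 without each DMSO library in turn. UMPS, which completes UMP, was at 75.8 and 74.2 CPM with DMSO, 76.5 and 75.5 with ATRA, 55.4 and 59.5 with Corin, and 59.5 and 59.9 with both agents in SKNO-1, with U-937 values of 54.4 and 59, 45.2 and 44.1, 52.4 and 47.6, and 19.5 and 21.4 CPM. Its fall in U-937 with ATRA (-0.34 ± 0.10, adjusted p = 0.00831) was lost without either ATRA library and without the second DMSO library (adjusted p up to 0.0981), while that with both agents (-1.46 ± 0.11) was called in all 16 alternatives.

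CTPS1 and CTPS2 encode CTP synthases, and CTPS1 was far more abundant. CTPS1 stood in SKNO-1 at 155 and 167 CPM with DMSO, 153 and 158 with ATRA, 105 and 103 with Corin, and 92.5 and 98.5 with both agents. For CTPS1, the U-937 values were 156 and 167, 100.4 and 97.3, 138 and 135, and 17.4 and 16.9 CPM. With DMSO the lines overlapped, and under the combination U-937 fell 9.40-fold (-3.23 ± 0.10, adjusted p = 5.43e-18) and SKNO-1 1.63-fold (-0.70 ± 0.059, adjusted p = 6.59e-05). It also fell with ATRA in U-937 (-0.71 ± 0.093) and with Corin in SKNO-1 (-0.63 ± 0.059). CTPS2 was at 11.8 and 13.9 CPM with DMSO, 13.6 and 13.3 with ATRA, 14.4 and 13.2 with Corin, and 10.7 and 10.1 with both agents in SKNO-1, with U-937 values of 13.8 and 15, 10.4 and 10.5, 12.1 and 12, and 5.51 and 6.61 CPM. Its fall in U-937 was -1.24 ± 0.14 with both agents and -0.46 ± 0.14 with ATRA, the latter lost without either ATRA library and without the second DMSO library. The ratio of CTPS1 to CTPS2 in TPM was 12.3 and 12.5 with DMSO and 2.90 and 3.16 with both agents in U-937. All 5 pyrimidine genes were lower in U-937 with ATRA and all 5 with both agents, where 20.1% and 32.2% of all genes were.

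**Figure D2:**
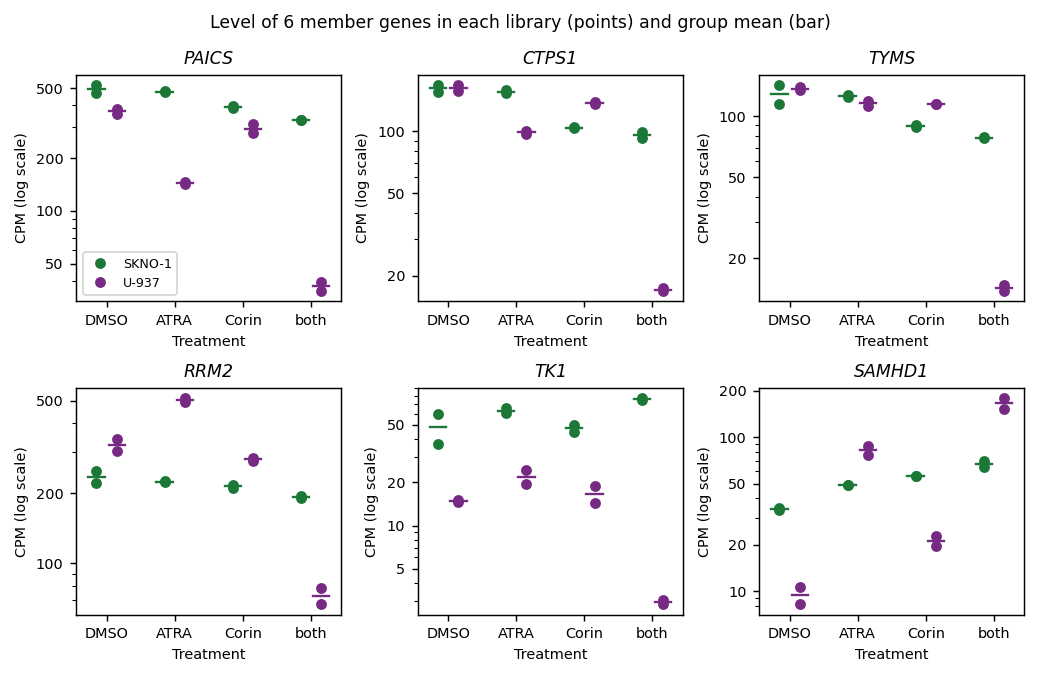
Level of 6 members in CPM (log scale) in each of the 16 libraries (points) with the mean of each group (bar), by treatment, for SKNO-1 (green) and U-937 (purple). In U-937, PAICS and CTPS1 drop with ATRA and further with both agents, RRM2 and TK1 are higher with ATRA and lowest with both, and SAMHD1 is at 153 and 179 CPM with both.

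The deoxynucleotide genes had a different order of groups in U-937. RRM1 and RRM2 are the large and small subunits of ribonucleotide reductase. RRM2 stood in SKNO-1 at 221 and 251 CPM with DMSO, 226 and 223 with ATRA, 218 and 212 with Corin, and 191 and 194 with both agents. For RRM2, the U-937 values were 303 and 341, 514 and 494, 284 and 276, and 66.8 and 78.5 CPM. In U-937 both ATRA libraries lay above and both combination libraries below the other 4, with log2 fold changes of 0.64 ± 0.11 (adjusted p = 2.7e-05) and -2.14 ± 0.11 (adjusted p = 2.94e-14). The ATRA rise was called in all 16 alternatives, with values from 0.56 to 0.73. RRM1 was at 111 and 117 CPM with DMSO, 113 and 116 with ATRA, 100 and 91.6 with Corin, and 91.6 and 90.4 with both agents in SKNO-1, with U-937 values of 217 and 231, 192 and 196, 215 and 181, and 31.1 and 40.2 CPM. RRM1 was not called with ATRA in U-937 (-0.21 ± 0.11, adjusted p = 0.149) and fell 6.26-fold with both agents (-2.65 ± 0.12, adjusted p = 8.26e-15). In SKNO-1 both subunits fell by less with both agents, with log2 fold changes of -0.27 ± 0.063 for RRM1 and -0.24 ± 0.060 for RRM2. The first call was lost without the second combination library, the other without either, and both with the GC trend removed. Without each DMSO library in turn the values were -0.30 and -0.27 for RRM1 and -0.32 and -0.18 for RRM2. RRM2 to RRM1 in TPM was 1.73 and 1.71 with DMSO and 2.98 and 2.91 with ATRA in U-937. RRM2 counts were not whole in 81.25% of libraries.

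TK1, the cytosolic thymidine kinase of dividing cells, stood in SKNO-1 at 59.3 and 37 CPM with DMSO, 60.3 and 65.2 with ATRA, 49.9 and 44.8 with Corin, and 74.6 and 76.8 with both agents. For TK1, the U-937 values were 15 and 14.5, 19.3 and 24.5, 19 and 14.4, and 2.84 and 3.04 CPM. It rose with ATRA in U-937 (0.56 ± 0.14, adjusted p = 0.00277), a call lost without the second ATRA library (adjusted p = 0.119, range over alternatives 0.000325 to 0.119), and fell 5.02-fold with both agents (-2.33 ± 0.17, adjusted p = 1.86e-11). In SKNO-1 TK1 rose with both agents (0.70 ± 0.20, adjusted p = 0.02), although its DMSO libraries differed by more than any other group's, and that call was lost without either combination library. Its value was 1.09 and 0.37 without the first and the second DMSO library. DCK, the kinase that activates cytarabine and salvages deoxycytidine, was at 72.3 and 97 CPM with DMSO, 87.3 and 90.7 with ATRA, 66.2 and 68.8 with Corin, and 55.7 and 59.1 with both agents in SKNO-1. For DCK, the U-937 values were 54.6 and 59.1, 67.1 and 70.0, 54 and 53.7, and 24.7 and 28.4 CPM. Its rise with ATRA in U-937 (0.27 ± 0.10, adjusted p = 0.0358) was called in 8 of 16 alternatives (adjusted p from 0.00137 to 0.247) and lost without any 1 of the 4 libraries compared, and with both agents it fell (-1.09 ± 0.10, adjusted p = 2.17e-09).

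TYMS, thymidylate synthase and the target of fluoropyrimidines, stood in SKNO-1 at 114 and 143 CPM with DMSO, 127 and 124 with ATRA, 90.9 and 88.6 with Corin, and 78.9 and 77.8 with both agents. For TYMS, the U-937 values were 139 and 134, 119 and 112, 115 and 114, and 13.8 and 14.7 CPM. Its U-937 fall was -0.24 ± 0.093, adjusted p = 0.0381, with ATRA, a call that held in 10 of 16 alternatives (adjusted p from 0.00512 to 0.267) and was lost without any 1 of the 4 libraries compared, and it was 9.54-fold with both agents (-3.25 ± 0.11, adjusted p = 6.47e-18). In SKNO-1 it fell with Corin (-0.51 ± 0.087, and -0.67 and -0.39 without each DMSO library in turn) and with both (-0.66 ± 0.088). TYMS, at chr18:657653-673578 on the plus strand, overlaps ENOSF1 on the opposite strand, so reads of the 2 cannot be told apart if strand was not used. DTYMK, which phosphorylates dTMP, was at 24.5 and 17.7 CPM with DMSO, 17.1 and 19.5 with ATRA, 12 and 11.4 with Corin, and 14.3 and 15 with both agents in SKNO-1. For DTYMK, the U-937 values were 12.7 and 12.1, 10.3 and 11.5, 13.1 and 10.7, and 2.59 and 2.08 CPM. It fell with Corin in SKNO-1 (-0.85 ± 0.17, adjusted p = 0.00583), a call lost without the second Corin library (adjusted p = 0.0552, range 2.84e-08 to 0.0552), and with both agents in U-937 (-2.40 ± 0.18). DUT, which removes dUTP and yields dUMP, was at 96.5 and 131 CPM with DMSO, 126 and 131 with ATRA, 87.9 and 91.2 with Corin, and 83.3 and 85.6 with both agents in SKNO-1, with U-937 values of 191 and 213, 178 and 176, 172 and 163, and 35.3 and 40.6 CPM. DUT fell 5.30-fold with both agents in U-937 (-2.41 ± 0.11, adjusted p = 1.57e-15) and was not called there with ATRA (-0.19 ± 0.099). Of these 7 genes, 3 were higher and 1 lower with ATRA in U-937, where 21.7% of all genes were higher and 20.1% lower. All 7 were lower with both agents, where 32.2% of all genes were.

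Among the nucleotide kinases, NME1 and NME2 make nucleoside triphosphates and lie side by side on chromosome 17, both overlapped by the NME1-NME2 readthrough gene, so that their counts are uncertain. NME1 stood in SKNO-1 at 257 and 234 CPM with DMSO, 239 and 248 with ATRA, 186 and 181 with Corin, and 166 and 167 with both agents. For NME1, the U-937 values were 130.3 and 135, 63 and 64.4, 147 and 116, and 20.9 and 23.4 CPM. It fell in U-937 with ATRA (-1.06 ± 0.11) and with both (-2.57 ± 0.12), and in SKNO-1 with Corin (-0.42 ± 0.069) and with both (-0.51 ± 0.069). Leaving out either DMSO library gave -0.35 and -0.52 with Corin and -0.43 and -0.60 with both for NME1. NME2 was at 413 and 379.7 CPM with DMSO, 351 and 382 with ATRA, 323 and 309.5 with Corin, and 278 and 280.1 with both agents in SKNO-1, with U-937 values of 174 and 188, 106 and 113, 174 and 136, and 68 and 80.8 CPM. Its U-937 falls were -0.73 ± 0.11 and -1.28 ± 0.12, and the ratio of NME1 to NME2 in TPM was 0.587 and 0.561 with DMSO and 0.237 and 0.229 with both agents. GUK1, the guanylate kinase, was higher in U-937 with ATRA (0.61 ± 0.12, adjusted p = 0.000365) and with both (1.04 ± 0.12, adjusted p = 9.66e-08), from 18.2 and 14.4 CPM with DMSO to 22.9 and 27 with ATRA and 33.7 and 33.2 with both. Its SKNO-1 DMSO libraries were at 31.3 and 15 CPM and enclosed all but 1 of its other SKNO-1 values. CMPK1, the UMP and CMP kinase, changed least among the members lower in the U-937 combination (-0.30 ± 0.098, adjusted p = 0.00944), a call lost without the first combination library, without the second DMSO library and with the GC trend removed (adjusted p up to 0.193).

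HPRT1 recovers hypoxanthine and guanine, and stood in SKNO-1 at 44.5 and 58.1 CPM with DMSO, 49.1 and 52.2 with ATRA, 44.6 and 44.1 with Corin, and 36.3 and 36.2 with both agents. For HPRT1, the U-937 values were 69.4 and 76.7, 48.7 and 48.3, 60.2 and 56.3, and 19.7 and 20.4 CPM. It fell in U-937 with ATRA (-0.59 ± 0.099), with Corin (-0.32 ± 0.099) and with both (-1.86 ± 0.10), and the Corin call was lost without the second Corin library and without any 1 DMSO or ATRA library. APRT, which recovers adenine, fell in U-937 with both agents, from 27.3 and 23.1 CPM to 13.4 and 13.2 (-0.92 ± 0.14, adjusted p = 4.34e-06). SLC29A1, the equilibrative transporter through which nucleosides and nucleoside drugs enter cells, stood in SKNO-1 at 160.3 and 128 CPM with DMSO, 157 and 159.5 with ATRA, 127 and 124 with Corin, and 164 and 164 with both agents. For SLC29A1, the U-937 values were 148 and 138, 98 and 101, 143 and 123, and 19.3 and 22.6 CPM. It fell 6.80-fold with both agents in U-937 (-2.77 ± 0.11, adjusted p = 3.55e-16) and less with ATRA (-0.52 ± 0.10), and was not called against DMSO in SKNO-1.

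SAMHD1, the dNTP hydrolase at chr20:36890229-36951893 on the minus strand, was higher in all 6 treatment comparisons. SAMHD1 stood in SKNO-1 at 33.7 and 34.4 CPM with DMSO, 48.9 and 48.8 with ATRA, 56.2 and 55.6 with Corin, and 64.2 and 70.1 with both agents. For SAMHD1, the U-937 values were 8.22 and 10.6, 87.9 and 77.1, 19.5 and 22.8, and 179 and 153 CPM. No treated library of either line overlapped its DMSO group. In U-937 it rose 8.77-fold with ATRA (3.13 ± 0.14, adjusted p = 6.22e-14), 2.26-fold with Corin (1.17 ± 0.14, adjusted p = 1.96e-06) and 17.8-fold with both (4.15 ± 0.14, adjusted p = 1.76e-16). In SKNO-1 the rises were 0.56 ± 0.068, adjusted p = 0.00207, with ATRA, 0.72 ± 0.068, adjusted p = 0.000172, with Corin, and 1.03 ± 0.068, adjusted p = 2.25e-05, with both. By mean TPM of the group it was the lowest of the 31 members in U-937 with DMSO, at 3.90 ± 0.488. With both agents it ranked 3 of 31, at 43.3 ± 10.1 (SD, n = 2). That mean did not differ beyond the spread from CMPK1 at 42.9 ± 2.23, and the libraries were at 50.45 and 36.21 TPM. SAMHD1 overlaps TLDC2 on the opposite strand.

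Whether the agents together did more than their separate effects was tested as the log2 effect of both minus the sum of the single effects. In U-937, 24 of 31 members lay below that sum and 0 above, where 23.4% of genes were called, 8.11% above and 15.3% below, and the median member was -1.21 (all genes -0.03). All 7 deoxynucleotide genes were below it, with values of -3.07 ± 0.22 for TK1, -2.76 ± 0.14 for TYMS, -2.59 ± 0.15 for RRM2, -2.27 ± 0.16 for RRM1, -2.15 ± 0.23 for DTYMK, -1.95 ± 0.14 for DUT and -1.29 ± 0.14 for DCK. Among the other members the lowest were CTPS1 (-2.28 ± 0.14), SLC29A1 (-2.15 ± 0.15) and PFAS (-1.94 ± 0.16). The members not called were ADSL, IMPDH1, CTPS2, CMPK1, GUK1, NME2 and SAMHD1, and SAMHD1 stood within its error of the sum (-0.15 ± 0.18, adjusted p = 0.603). The call of GART (-0.41 ± 0.15, adjusted p = 0.0482) held in 7 of 15 alternatives (adjusted p 0.00524 to 0.209) and was lost without either ATRA or DMSO library, without the first Corin library and without the first combination library. In SKNO-1, 0 members were called, where 0.463% of genes were, 0.315% above and 0.149% below. Of the members, 7 had an unadjusted p under 0.05, and DESeq2 called 0. The count of called members in SKNO-1 changed without either SKNO-1 DMSO library. The median member there was -0.095, and -0.043 and -0.042 without the first and without the second of them.

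**Figure D3:**
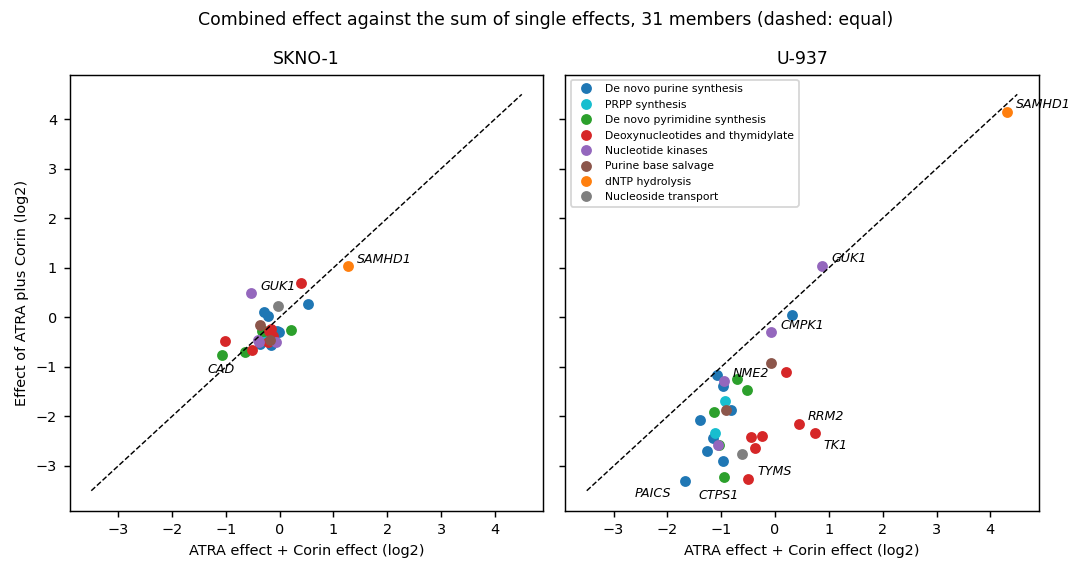
Combined log2 effect (vertical axis) against the sum of the single ATRA and Corin effects (horizontal axis) for the 31 members, coloured by role, in SKNO-1 (left) and U-937 (right), with equality as a dashed line. In U-937 most members lie below the line, TK1, TYMS and RRM2 farthest, and SAMHD1 and GUK1 lie near it.

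The 2 lines were compared by the difference of their treatment effects in 1 fit of all 16 libraries. The ATRA effect differed for 21 members, 19 lower and 2 higher in U-937, where 19.4% of genes were called, 10.6% higher and 8.8% lower. The members higher in U-937 were SAMHD1 (2.61 ± 0.17, adjusted p = 2.85e-09) and RRM2 (0.72 ± 0.13, adjusted p = 0.000542), and PAICS had the largest difference downward (-1.29 ± 0.12, adjusted p = 4.96e-07). The Corin effect differed for 4 members, CAD (0.79 ± 0.14, adjusted p = 0.00107), DTYMK (0.79 ± 0.22, adjusted p = 0.0224) and CTPS1 (0.39 ± 0.11, adjusted p = 0.0252), which fell less in U-937, and IMPDH2 (-0.48 ± 0.15, adjusted p = 0.0365), where 12.8% of genes were called, 5.28% higher and 7.49% lower. That count was 10 without the second SKNO-1 DMSO library and 1 without either SKNO-1 Corin library or without the first U-937 DMSO library. The combined effect differed for 27 members, 26 lower and 1 higher in U-937, where 40.6% of genes were called, 17.9% higher and 22.7% lower. TK1 (-2.99 ± 0.29, adjusted p = 1.2e-06), SLC29A1 (-2.95 ± 0.15, adjusted p = 2.63e-11) and PFAS (-2.89 ± 0.18, adjusted p = 2.3e-10) differed most downward, and SAMHD1 was the member higher in U-937 (3.17 ± 0.17, adjusted p = 3.55e-11). IMPDH1, CMPK1, GUK1 and APRT were not called.

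Other genes of nucleotide metabolism were counted by list. In U-937, 33.1% of all genes were higher and 32.2% lower with both agents, and 21.7% higher and 20.1% lower with ATRA. Folate enzymes supply one-carbon units for purine and thymidylate synthesis, and 6 of 6 were lower with both agents (median -2.20). MTHFD1L, the mitochondrial formate-producing synthetase, was at 118 and 125 CPM with DMSO, 34.8 and 33.6 with ATRA, 75.8 and 74.2 with Corin and 6.59 and 8.16 with both (-4.04 ± 0.12, adjusted p = 1.22e-18). With ATRA 4 of these 6 were lower and SHMT1 was higher (0.27 ± 0.10), and with Corin MTHFD1L was the 1 called (-0.69 ± 0.10), where 4.4% of all genes were lower. Of 14 tested breakdown genes, 9 were higher and 4 lower with both agents, and 7 were higher and 2 lower with ATRA. CD38, an ectoenzyme that consumes NAD, rose most (4.78 ± 0.12, adjusted p = 9.69e-20), from 12.7 and 11.5 CPM to 310.3 and 351, and stood at 389 and 378 with ATRA alone. UPP1, uridine phosphorylase, went from 4.99 and 6.0 CPM to 32.2 and 32.3 (2.56 ± 0.15, adjusted p = 1.71e-13). Of 27 tested genes of other synthesis and salvage, 7 were higher and 12 lower with both agents, and the called share of 70.4% is near the 65.3% of all genes. NME4, a mitochondrial diphosphate kinase, fell most (-1.80 ± 0.16), and SLC29A2, a second nucleoside transporter, rose most (1.67 ± 0.35) from 0.635 and 0.524 CPM to 1.90 and 1.78. With ATRA 8 of these were higher and 12 lower, SLC29A3 most upward (1.07 ± 0.18) and AK4 most downward (-1.81 ± 0.12). In SKNO-1 with both agents, where 24.7% of all genes were higher and 22% lower, the folate list had 0 higher and 2 lower of 6, breakdown 7 and 2 of 16, and other synthesis and salvage 7 and 9 of 28. The called shares of 33.3%, 56.2% and 57.1% stand beside 46.7% of all genes. A refit without each SKNO-1 DMSO library in turn, added after seeing the data, gave 2 higher and 3 lower and then 1 and 2 for folate, 10 and 2 and then 8 and 3 for breakdown, and 10 and 11 and then 7 and 15 for other synthesis and salvage. MTHFD1L fell there (-0.63 ± 0.11, and -0.71 and -0.57 in the refit). DPYD, the pyrimidine-degrading dehydrogenase, rose most among the called breakdown genes (2.19 ± 0.16, and 2.00 and 2.38 in the refit). ADSS1, an adenylosuccinate synthase, rose from 0.180 and 0.254 CPM to 1.26 and 1.32 (2.62 ± 0.38, and 2.41 and 2.86 in the refit).

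**Figure D4:**
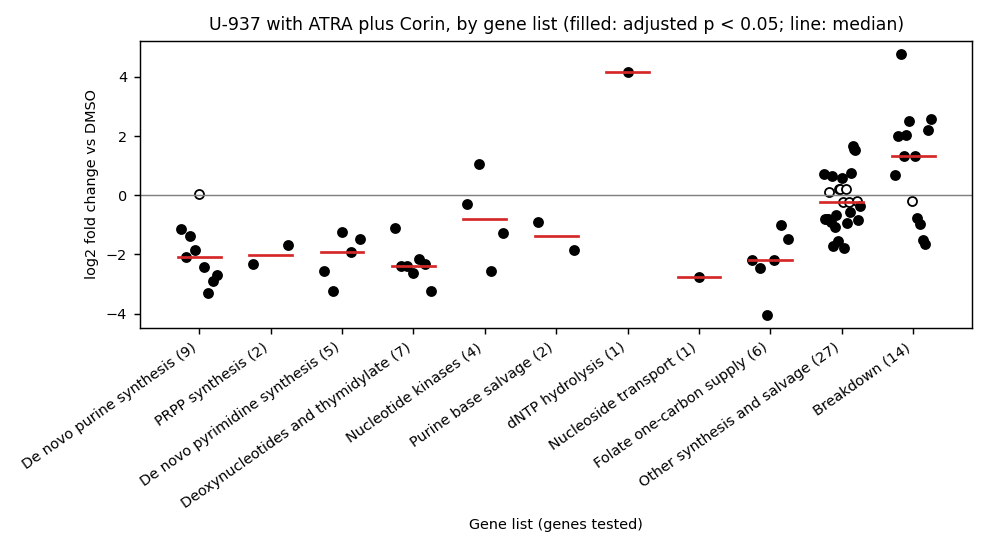
Log2 fold change of U-937 with both agents against DMSO (vertical axis) for each tested gene (points, filled where the adjusted p was under 0.05) by gene list (horizontal axis, with the number tested), with the list's median as a line. The folate list lies at -2.20 and the breakdown list at 1.32, beside the synthesis lists.

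Genes of proliferation moved beside these results, and their part in them was not tested. MYC was at 212 and 201 CPM in U-937 with DMSO, 38.7 and 37 with ATRA, 209 and 193 with Corin and 4.23 and 4.53 with both agents (-2.45 ± 0.10 with ATRA and -5.55 ± 0.12 with both). With ATRA in U-937, the replication gene MCM2 was lower (-0.31 ± 0.10), PCNA and E2F1 were not called (-0.01 and 0.00), and MKI67 (0.29 ± 0.11) and CCNE2 (1.08 ± 0.15) were higher. With both agents all 6 of these genes were lower in U-937, where 32.2% of all genes were. The log2 fold changes were -3.47 ± 0.11 for MCM2, -2.84 ± 0.13 for E2F1 and -2.61 ± 0.12 for PCNA. In SKNO-1, MYC was at 464 and 411 CPM with DMSO, 388 and 425 with ATRA, 332 and 324 with Corin and 295 and 312 with both, and it fell with Corin (-0.41 ± 0.083, and -0.32 and -0.54 without each DMSO library in turn) and with both (-0.48 ± 0.083, and -0.38 and -0.59). With Corin in SKNO-1, 5 of the 6 genes were lower, where 17.3% of all genes were, with a list median of -0.42. Besides MYC these were E2F1 (-0.53 ± 0.17), PCNA (-0.38 ± 0.052), CCNE2 (-0.42 ± 0.084) and MCM2 (-0.46 ± 0.15), and MKI67 was not called (-0.26 ± 0.12). With both agents 4 of the 6 were lower, where 22% of all genes were, with a median of -0.38. They were MYC, MKI67 (-0.58 ± 0.12), PCNA (-0.29 ± 0.052) and CCNE2 (-0.71 ± 0.085), while E2F1 and MCM2 were not called (0.00 and 0.13). Without the first and without the second DMSO library, 6 and 5 were lower with Corin and 4 and 6 with both. E2F1 and MCM2 were higher with both without the first (0.32 and 0.41) and lower without the second (-0.28 and -0.12).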

How the data were processed

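The authors deposited RSEM expected counts per gene for each library, per the file headers. The build hg38 is given in the submitters' processing notes. The authors also deposited TPM per gene. Trimmomatic, STAR, RSEM, deepTools and DESeq2 are named in the submitters' processing notes, and their versions, the annotation release and the use of strand are not given in the sources used here. Per the labels' protocols, a stranded total RNA kit and paired-end reads were used. Whether both reads of a pair entered the counts is not stated. Counts were rounded to whole numbers, filtered with filterByExpr, scaled by TMM and tested with edgeR 4.0.16 (robust quasi-likelihood, group as the only factor) in R 4.3.3, over 17479 genes for SKNO-1, 17717 for U-937 and 19872 when all 16 libraries were fitted. The fits leave 4, 4 and 8 residual degrees of freedom. All 31 members passed the filter in each fit. Fold changes of a line come from its fit of 8 libraries. CPM uses the TMM-scaled totals of all 16 libraries, and ± beside a log2 fold change is its standard error. TPM was used only to compare genes within libraries, since its median over genes shifted by -0.50 (log2) in the U-937 combination and by -0.38 in that of SKNO-1. Alternatives were DESeq2 1.42.0, its size factors, library totals, no filter, the compared groups only, a replicate block, a GC correction and each library left out. A refit of the listed genes outside the 31 without each SKNO-1 DMSO library was added after seeing the data. The members, the lists and the naming rule were chosen with earlier results of these data known. By that rule, libraries are listed for members with the 3 largest called changes in a comparison with DMSO, for members whose effects differed between lines and for paralog pairs, the largest change each way is named for other lists, and promoters are printed for PPAT with PAICS and for the 2 members with the largest falls. The RRM2 stretch was added after its match was seen. The authors' own comparison tables were not used here. The values of 1 marker gene and of 1 breakdown gene are not reported here.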

Additional observations from a re-analysis of the deposited data

Results flagged for a closer look

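The effect of a treatment differed between the lines, by the edgeR test of the difference itself, for 21 members with ATRA, 4 with Corin and 27 with both agents, where 19.4%, 12.8% and 40.6% of all genes did. The 4 members with Corin are 12.9% of the 31, near the share of all genes. Values are log2 differences, U-937 minus SKNO-1, and the lines also differed in GM-CSF.

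With ATRA, the members with the lower effect in U-937 were PAICS -1.29, PPAT -1.22, IMPDH2 -1.17, ATIC -1.12, PFAS -1.06, DHODH -1.05, NME1 -1.05, GART -0.90, PRPS1 -0.87, CAD -0.73, CTPS1 -0.66, SLC29A1 -0.65, ADSL -0.62, NME2 -0.61, HPRT1 -0.57, CTPS2 -0.53, PRPS2 -0.51, GMPS -0.51 and UMPS -0.36. Those with the higher effect were SAMHD1 2.61 and RRM2 0.72. Of these 21, 18 were called in all 24 alternatives. UMPS lost its call when any 1 of the 4 ATRA libraries or the second U-937 DMSO library was left out, and CTPS2 when any of those or the first SKNO-1 DMSO library was. Both lost it also without the low-count filter, with only the compared groups and under the replicate block, and HPRT1 lost it with only the compared groups.

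With Corin, the lower effect in U-937 was that of IMPDH2 -0.48, and the higher ones were CAD 0.79, DTYMK 0.79 and CTPS1 0.39. CAD was called in all 24 alternatives. CTPS1 was called in 19 of the 24 and lost its call without either SKNO-1 Corin library and without the first U-937 DMSO library. DTYMK was called in 17 and lost its call without either SKNO-1 Corin library, the first SKNO-1 DMSO library, the first U-937 Corin library or either U-937 DMSO library. IMPDH2 was called in 10, and lost its call without any 1 library except the first SKNO-1 DMSO library, the first U-937 Corin library and both U-937 combination libraries.

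With both agents, the lower effects in U-937 were TK1 -2.99, SLC29A1 -2.95, PFAS -2.89, PAICS -2.72, IMPDH2 -2.67, TYMS -2.55, CTPS1 -2.48, PPAT -2.36, RRM1 -2.33, NME1 -2.02, DUT -1.98, PRPS1 -1.89, DTYMK -1.88, RRM2 -1.86, CAD -1.77, DHODH -1.59, GMPS -1.54, ATIC -1.47, HPRT1 -1.36, PRPS2 -1.18, UMPS -1.14, GART -1.08, CTPS2 -0.95, NME2 -0.78, ADSL -0.68 and DCK -0.54. The higher effect was that of SAMHD1 3.17. Of these 27, 26 were called in all 24 alternatives, and DCK lost its call without the first U-937 combination library.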

How the results depend on the processing

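The U-937 counts for ATRA, for both agents against DMSO or a single agent and for the combined effect beyond the sum, the differences between lines in the ATRA effect, the combined effect and the DMSO level, and the SKNO-1 count for both agents against ATRA stayed within 1.5 times under every alternative that kept all libraries. Under the fit with a replicate block, the count for both agents against Corin in SKNO-1 was 0 and that for Corin in U-937 was 3. The deviations of same-numbered libraries correlated between groups by -0.488 to 0.418, with both signs, and no label ties a number to a shared culture or day. DESeq2 called 9 for both agents against Corin in SKNO-1 and 10 for Corin in U-937, and library totals gave 9 for the latter. Without the low-count filter, both agents against Corin in SKNO-1 gave 11 and the effect beyond the sum 2. With the GC trend removed, ATRA in SKNO-1 gave 4, both against Corin 5, the effect beyond the sum 1, Corin in U-937 9 and the line difference for Corin 7, and with GC and the replicate block together the values were 4, 5 and 2 in SKNO-1 and 7 for the line difference. With only the groups compared, SKNO-1 gave 0 for ATRA, 8 for Corin, 11 for both agents and 23 for both against Corin, and the line difference for Corin was 1. The cause of these shifts was not tested. Calls over all genes also differed by setting. For both agents against Corin in SKNO-1, 1821 of 17479 genes were called in the main fit and 1066 with the replicate block. DESeq2 called 2547 there, and 4232 of 30704 were called without the filter. Beyond the sum in SKNO-1, 81 of 17479 were called, and 1442 of 30704 without the filter. For Corin in U-937, 2293 of 17717 were called, 2015 with DESeq2, 2364 with library totals and 1969 with the block. Counts under the other alternatives and with a library left out have no all-gene calls beside them. Leaving out each library in turn gave 1 to 15 for ATRA, 7 to 27 for Corin, 12 to 29 for both agents, 15 to 29 for both against ATRA, 0 to 22 for both against Corin and 0 to 19 beyond the sum in SKNO-1. In U-937 the ranges were 20 to 25, 1 to 6, 29 to 30, 28 to 30, 29 to 29 and 23 to 26 in the same order, and between lines 19 to 25 for ATRA, 1 to 10 for Corin, 26 to 30 for both and 21 to 25 with DMSO. The Corin count in U-937 was 1 without either DMSO library, 2 without the second Corin library and 3 without either ATRA library. Both against Corin in SKNO-1 gave 22 without either DMSO library and 0 without any 1 of the other 6. In SKNO-1, directions depended on the DMSO libraries. Listed are log2 fold changes without the first and without the second, where the direction turned with a call in either fit. Members that changed sign without a call are not listed. With ATRA they were 0.29 and -0.32 for IMPDH1, -0.17 and 0.10 for TYMS, and -0.13 and 0.29 for CMPK1. GUK1 stood there at 0.55 and -0.56, HPRT1 at -0.18 and 0.16, and APRT at 0.36 and -0.48. With Corin the values were 0.36 and -0.36 for TK1 and 0.17 and -0.67 for APRT. With both agents they were 0.31 and -0.53 for APRT, 0.26 and -0.20 for PFAS, and 0.43 and -0.19 for IMPDH1. With the GC trend removed the direction turned for TK1 with Corin (0.24, and 0.24 with the block), APRT with both against Corin (-0.45, and -0.45 with the block) and IMPDH1 in the line difference with both (0.21), and with GC and the block for APRT beyond the sum (-0.34). Over members and comparisons, 3648 values kept their side of the threshold under the alternatives that kept all libraries, 105 lost and 147 gained a call. Another 6, with a call in either fit, turned direction. Values called in neither fit that changed sign are counted among the 3648. Library totals moved the median of all genes in the line difference with both agents from -0.11 to -0.27 and with DMSO from -0.02 to 0.15, and the GC correction moved it from 0.03 to 0.15 in U-937 with both agents and from 0.06 to 0.16 in SKNO-1. Differences under this size, with 2 libraries per group, were not resolved.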

Other observations

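Values of 3 further genes outside the 31, picked after their values were seen, follow. RRM2B, the small reductase subunit of quiescent cells, was at 43.5 and 49.7 CPM in U-937 with DMSO, 47.3 and 52.2 with ATRA, 41.4 and 39.1 with Corin and 73.9 and 83.3 with both agents. It was higher with both agents (0.76 ± 0.11, adjusted p = 9.66e-07, edgeR) and not called with ATRA (0.09 ± 0.11). In SKNO-1 it was at 87.8 and 114 CPM with DMSO, 63.1 and 62.9 with ATRA, 83 and 79.9 with Corin, and 52.7 and 59.1 with both agents, lower with ATRA (-0.64 ± 0.11, adjusted p = 0.0102) and with both (-0.80 ± 0.11, adjusted p = 0.000724), and without each SKNO-1 DMSO library in turn at -0.84 and -0.50 and at -0.97 and -0.63. TK2, the mitochondrial thymidine kinase, stood in U-937 at 13.6 and 12.4, 25.5 and 26.2, 16.2 and 14.2, and 36.9 and 37.8 CPM with DMSO, ATRA, Corin and both agents. It was higher with ATRA (0.99 ± 0.12, adjusted p = 2.31e-07) and with both (1.53 ± 0.12, adjusted p = 3.39e-11). AK4, a mitochondrial adenylate kinase isoform, stood in U-937 at 39.9 and 40.4, 10.9 and 12, 53.8 and 50.3, and 11.3 and 13.3 CPM in the same order. It fell with ATRA (-1.81 ± 0.12, adjusted p = 7.65e-12) and with both agents (-1.70 ± 0.12, adjusted p = 4.96e-12) and was higher with Corin (0.38 ± 0.11, adjusted p = 0.0195). In SKNO-1 it fell with ATRA (-0.68 ± 0.062, adjusted p = 0.000519), at -0.77 and -0.66 without each DMSO library in turn.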
